A study of Mus musculus with 14 samples.

Results

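Type I interferon-stimulated genes were followed in the CD11b+ microglia/macrophages of the injured and the opposite brain hemisphere at 3 days post-TBI. The 38 genes were listed by name and matched by Ensembl identifier to 38 of the 33939 genes measured, and each of the 38 passed the filter on low values in every comparison. They fall into 8 role groups, namely signalling and feedback (6 genes), RNA and DNA sensing (4), IFIT proteins (4), 2′-5′-oligoadenylate synthetases and their relatives (5), other antiviral effectors (7), chemokines (2), ADP-ribosyltransferases (2) and others (8).

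Type I interferons bind a receptor on nearly every cell and, through the kinases Jak1 and Tyk2, bring Stat2 and Irf9 into a complex that enters the nucleus and turns on the interferon-stimulated genes. The products of these genes sense foreign nucleic acid, block viral replication and, through Irf7, raise interferon output further. In the brain, microglia make and respond to type I interferon, and an interferon-responsive microglial state is known in injury, ageing and neurodegeneration.

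The mice were male C57BL/6, aged 8 to 12 weeks, and all had controlled cortical impact, so that the contralateral (CL) hemisphere comes from an injured mouse and not from an uninjured control. Ctrl mice were Cx3cr1-CreER+/-, and cKO mice were Cx3cr1-CreER+/-;Nhe1flox/flox, so that both genotypes carry the Cre allele, both received tamoxifen, and only the cKO mice carry the floxed allele. Cre is driven by *Cx3cr1*, which microglia, border macrophages and part of the monocytes express, while the sort took every CD11b+ cell. The paper left a wait between tamoxifen and injury, meant to clear the drug and to renew the peripheral monocytes. Libraries were made from 4 Ctrl CL and 4 ipsilateral (IL) Ctrl hemispheres of the same mice (3541, 3545, 3546 and 3551), from 3 cKO CL hemispheres (mice 788, 791 and 3592) and from 3 cKO IL hemispheres (mice 784, 791 and 3592). Library values below follow these orders of mice. Values are CPM as deposited, that is reads of a gene after every library was brought to the same total. A gene was called when its adjusted p from limma on log2(CPM + 1) did not exceed 0.05 and its levels differed by 1.2 times or more. Log2 differences are given ± SE on the log2(CPM + 1) scale, which understates the change of genes at low CPM.

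The reads behind the 14 libraries ranged from 12.2 to 41.6 M. The 10 microglial markers summed to between 21300 and 43901 CPM in each library, and none was at 0. The IL library of Ctrl mouse 3546 stood apart. It had the fewest reads, and its 186 genes with under 1 kb of exon had a median of -2.22 on the log2 scale against the other Ctrl IL libraries, compared with 0.09 for 6833 genes of 3 kb or more. The interferon-stimulated genes under 1 kb are *Isg15*, *Ifitm3*, *Ifi27l2a* and *Bst2*, whose values there differed by -2.44, -2.47, -2.76 and -1.35 on the same scale. Differences that leaving out this library moved by over 1.5 times, or whose call it changed, are given with and without it where they are printed.

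Promoters are printed of the genes called higher in IL in both genotypes in the fit without a term for the mouse. Those of *Isg15* and *Ifit1* are added as members with several copies of the motif. They show where the letters that the interferon-activated factor is known to bind lie. RefSeq windows on GRCm38.p6 (250 bases before and 50 after the start of the gene, read along its own strand) were used for 28 of the 38 genes, in 33 windows, and the 250 bases before the start are printed. Capitals mark the interferon-stimulated response element (ISRE), searched as GAAANNGAAA or, for the other strand, TTTCNNTTTC.
Irf7 (chr7:141266425-141266674, minus strand): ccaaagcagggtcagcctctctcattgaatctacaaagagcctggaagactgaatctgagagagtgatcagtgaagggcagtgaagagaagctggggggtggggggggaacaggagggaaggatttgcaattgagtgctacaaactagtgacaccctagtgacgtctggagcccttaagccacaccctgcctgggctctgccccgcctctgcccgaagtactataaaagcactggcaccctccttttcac
Isg15 (chr4:156200819-156201068, minus strand): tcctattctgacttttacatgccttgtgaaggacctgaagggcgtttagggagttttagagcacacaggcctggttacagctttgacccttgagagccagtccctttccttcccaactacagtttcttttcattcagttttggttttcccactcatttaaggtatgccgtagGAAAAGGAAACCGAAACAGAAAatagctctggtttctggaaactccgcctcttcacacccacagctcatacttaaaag
Ifit1 (chr19:34640639-34640888, plus strand): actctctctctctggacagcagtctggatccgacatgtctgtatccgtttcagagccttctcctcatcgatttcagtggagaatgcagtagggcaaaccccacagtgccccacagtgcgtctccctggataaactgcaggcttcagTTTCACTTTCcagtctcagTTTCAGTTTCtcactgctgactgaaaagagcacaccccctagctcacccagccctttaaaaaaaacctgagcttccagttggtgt
Ifit2 (chr19:34550444-34550693, plus strand): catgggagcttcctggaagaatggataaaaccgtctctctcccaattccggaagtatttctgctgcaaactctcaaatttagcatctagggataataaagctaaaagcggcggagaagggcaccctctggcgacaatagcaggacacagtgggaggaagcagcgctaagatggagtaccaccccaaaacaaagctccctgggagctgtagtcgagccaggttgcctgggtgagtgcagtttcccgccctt
Ifit2 (chr19:34550838-34551087, plus strand): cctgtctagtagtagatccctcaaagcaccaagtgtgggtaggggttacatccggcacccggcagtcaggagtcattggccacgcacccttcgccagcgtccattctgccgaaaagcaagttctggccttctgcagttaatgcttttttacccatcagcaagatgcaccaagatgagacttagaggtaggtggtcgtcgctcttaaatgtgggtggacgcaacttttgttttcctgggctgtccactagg
Rsad2 (chr12:26456453-26456702, minus strand): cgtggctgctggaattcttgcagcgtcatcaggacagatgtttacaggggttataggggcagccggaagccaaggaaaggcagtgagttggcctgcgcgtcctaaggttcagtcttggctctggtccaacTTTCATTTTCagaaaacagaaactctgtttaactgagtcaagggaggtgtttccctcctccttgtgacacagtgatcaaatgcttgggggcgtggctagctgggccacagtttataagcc
The ISRE letters were found in 13 of the 33 windows (39.4%), against 3.44% of all 32851 windows of this length, and the windows with them belong to 13 genes. These are *Isg15* with 3 overlapping copies, *Ifit1*, *Ifit3*, *Ifit3b*, *Oas1a*, *Ifitm3* and *Bst2* with 2 each, and *Ifih1*, *Cxcl10*, *Oas3*, *Stat2*, *Rsad2* and *Eif2ak2* with 1 each. In *Rsad2* the match began 120 bases before the start, and in *Isg15* the 3 copies lay between 78 and 57 bases before it. The windows of *Irf7* and *Ifit2* hold none of these letters, which says nothing of sites outside them or of other spellings. The gamma-activated site TTCNNNGAA, which reads the same on both strands and may overlap an ISRE, was in 7 of the 33 windows (21.2%) against 8.30% of all windows. *Zbp1*, the fourth gene called in both genotypes without a term for the mouse, is named only, together with *Dhx58*, *Ifi27l2a*, *Mx1*, *Oas2*, *Parp14*, *Parp9*, *Rtp4*, *Tor3a* and *Usp18*, for which no window was used here.

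Differences between the injured and the opposite hemisphere were mostly above 0 in both genotypes, and more genes passed the test in cKO than in Ctrl. In Ctrl, 4 of the 38 were called higher in IL than in CL and none lower, against 4.18% and 3.33% of the 16376 genes tested. The 4 were *Irf7*, *Zbp1*, *Ifit2* and *Rsad2*. In cKO, 30 were called higher and none lower, against 12.3% and 10.8% of the 16757 genes tested, and the 30 include the same 4. The median log2 difference over the 38 genes was 0.79 in Ctrl and 1.56 in cKO, against -0.03 and 0.01 over all genes tested. Both hemispheres come from the same mouse in 4 Ctrl and 2 cKO mice, and with the mouse as a fixed term 22 genes were called higher in Ctrl (10.2% of all genes) and 31 in cKO (8.49%). The 31 included all 22. When the mouse was a random effect over all 14 libraries, the counts were 20 (11.6% of all genes) and 33 (8.57%). In cKO the fixed term leaves mice 784 and 788 without weight, since each gave a single hemisphere under the labels, and 1 residual degree of freedom. The labels do not say whether these numbers stand for different mice or for 1 mouse, and counts over mice and fits with the mouse term take them as different. The Ctrl count also turned on single libraries. It was 14 when the CL library of mouse 3541 was left out (3.68% of all genes), 7 without the IL library of mouse 3546 (5.6%), 2 without the IL library of mouse 3551 (2.9%) and 1 without any of the other 5. The shares of all genes in those 5 fits were 2.52%, 2.95% and 2.93% without the CL libraries of mice 3545, 3546 and 3551, and 2.21% and 2.38% without the IL libraries of mice 3541 and 3545. It was 6 with all 14 libraries in 1 fit (5.93%) and 1 with no filter on low values (1.38%). The cKO count was 16 without the IL library of mouse 784 (6.46% of all genes) or of mouse 791 (6.2%), and 21 with all 14 libraries in 1 fit (4.11%).

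**Figure D1:**
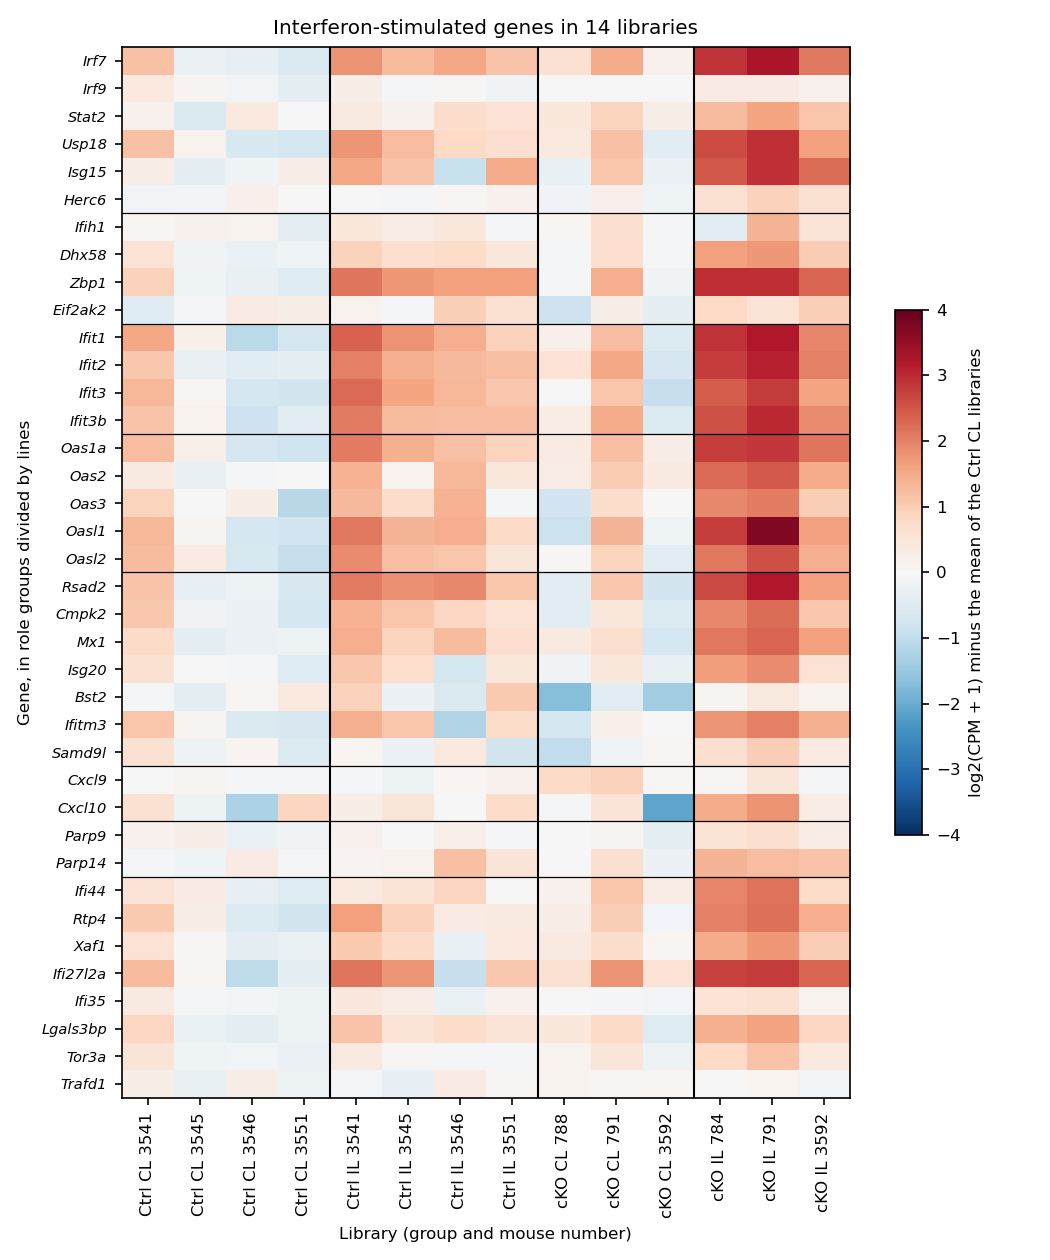
Heat map of the 38 genes (rows, in role groups divided by lines) in the 14 libraries (columns, by group and mouse number). Colour gives log2(CPM + 1) minus the mean of the 4 Ctrl CL libraries, red being higher and blue lower. The cKO IL libraries are the reddest, the IL library of Ctrl mouse 3546 is blue for *Isg15*, *Ifitm3*, *Isg20* and *Ifi27l2a*, and the libraries of mice 3541 and 791 are redder than the others of their groups.

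The direction was shared by most genes and most mice. The log2 difference was above 0 for 37 of the 38 genes in Ctrl, *Samd9l* being the exception, and for 36 in cKO, with *Cxcl9* and *Trafd1* below 0. Over all genes tested it was above 0 for 46.5% in Ctrl and 50.5% in cKO. Within mice, IL was above CL for 31, 35, 32 and 36 genes in Ctrl mice 3541, 3545, 3546 and 3551, with median log2 differences of 0.60, 0.87, 0.98 and 0.90. It was above CL for 37 and 36 genes in cKO mice 791 and 3592, with medians of 1.40 and 1.42. The medians over all genes in the same 6 mice lay between -0.03 and 0.02, and IL was above CL for 47.9% to 51.3% of all genes. In 24 of the 38 genes IL was higher in 6 of 6 mice, and no gene was lower in all 6, against 16.1% and 17.1% of the 15862 genes tested in both genotypes. Leaving out 1 library in turn moved the difference by over 1.5 times for 20 of the 38 genes in Ctrl and for 5 in cKO. None of these was called in that genotype in the fit of all libraries without a mouse term, while 5 of the 20 and 3 of the 5 were with the mouse as a fixed term.

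The hemispheres overlapped for most genes in Ctrl and for few in cKO. In Ctrl, every IL library was above every CL library for *Zbp1*, *Ifit2* and *Ifit3b* in deposited CPM (3 genes, against 6.26% of all genes tested), and after scaling for *Stat2*, *Zbp1*, *Ifit2* and *Parp14* (4 genes, against 7.74%). In cKO the same held for 32 of the 38 genes on either scale, against 18.1% of all genes in deposited CPM and 21.6% after scaling.

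Mice differed in level as a whole. After scaling, mouse 3541 had the highest value among the 4 Ctrl mice for 29 genes in CL and for 30 genes in IL. Among the cKO mice, 791 was highest on the same scale for 34 genes in CL and 36 in IL, while 3592 was lowest for 29 and 36. The mean of the 38 scaled log2 values was 4.97, 4.22, 3.85 and 3.77 in Ctrl CL, 5.55, 5.12, 4.74 and 4.76 in Ctrl IL, 4.23, 4.98 and 3.94 in cKO CL and 5.97, 6.31 and 5.34 in cKO IL. Ctrl CL 3541 thus lay within the range of the Ctrl IL libraries, and cKO IL 3592 below Ctrl IL 3541.

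**Figure D2:**
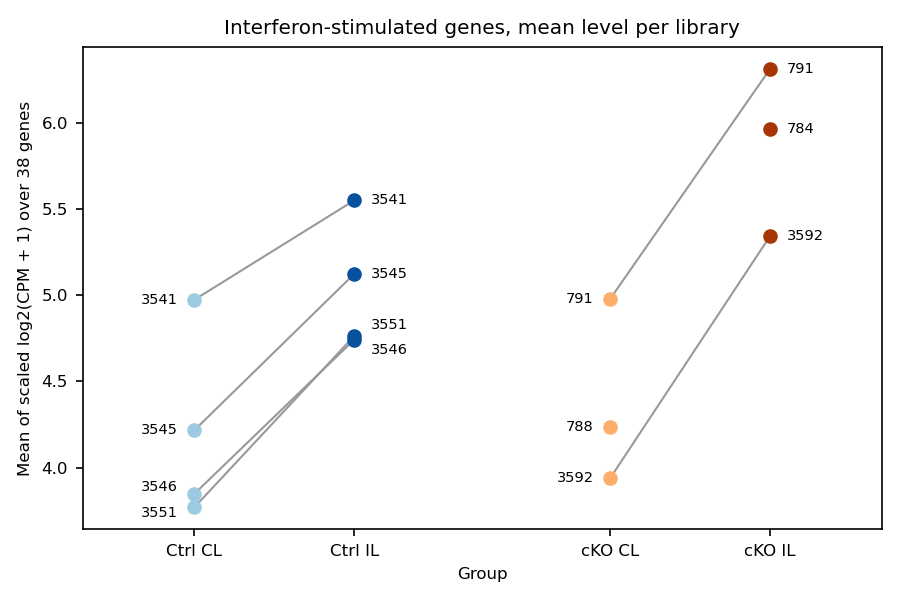
Mean of the scaled log2(CPM + 1) values of the 38 genes (y axis) in each library, by group (x axis), with the mouse number beside each point and grey lines joining the hemispheres of a mouse. All 6 lines go up from CL to IL, and mice 3541 and 791 are the highest of their genotypes in both hemispheres.

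Levels can be compared between genes per length. In Ctrl CL the highest means were those of *Ifitm3*, *Lgals3bp*, *Cxcl10* and *Ifi27l2a*, at 106, 87.2, 76.2 and 64.2 CPM per kb of exon, and in cKO IL the same 4 were at 318, 205, 167 and 343 CPM per kb. The lowest were *Oas3*, *Cxcl9* and *Ifi44*, at 0.393, 0.237 and 0.190 CPM per kb in Ctrl CL and 1.43, 0.317 and 0.957 CPM per kb in cKO IL.

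Signalling and feedback genes included the regulators of the response. *Irf7*, the transcription factor that amplifies interferon production, rose in both genotypes. *Irf7* was at 48.2, 17.1, 16.3 and 13.6 CPM in Ctrl CL and 74.7, 51.9, 62.5 and 46.7 CPM in Ctrl IL. For *Irf7* in cKO, the values were 32.0, 59.9 and 23.3 CPM in CL and 162, 206 and 93.7 CPM in IL. The IL minus CL difference was 1.52 ± 0.38 in Ctrl and 2.08 ± 0.39 in cKO (limma adjusted p = 0.0418 and 0.00963). The CL library of mouse 3541 reached into the range of the Ctrl IL libraries, while the cKO libraries did not overlap and all 3 cKO IL libraries were above all 4 Ctrl IL libraries. *Usp18*, the protease that removes Isg15 from proteins and dampens the interferon receptor, rose in cKO. *Usp18* was at 37.5, 18.2, 10.2 and 9.64 CPM in Ctrl CL and 57.0, 39.6, 29.1 and 26.7 CPM in Ctrl IL. For *Usp18* in cKO, the values were 21.7, 38.1 and 11.7 CPM in CL and 105, 131 and 52.4 CPM in IL. Its difference was 1.202 ± 0.45 in Ctrl and 2.08 ± 0.46 in cKO (limma adjusted p = 0.153 and 0.0164), and in Ctrl the limma adjusted p was 0.00211 with a fixed and 0.00924 with a random mouse term. In both genotypes IL was higher in each mouse with both hemispheres, and the cKO hemispheres did not overlap.

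*Isg15*, a ubiquitin-like protein that is attached to other proteins, was between 2.29 and 16.9 CPM in the 8 Ctrl libraries. *Isg15* was at 6.32, 3.74, 4.41 and 6.41 CPM in Ctrl CL and 16.9, 12.3, 2.29 and 16.1 CPM in Ctrl IL. For *Isg15* in cKO, the values were 3.96, 12.0 and 4.14 CPM in CL and 32.8, 45.03 and 27.5 CPM in IL. The difference between hemispheres was 0.90 ± 0.52 in Ctrl and 2.41 ± 0.38 in cKO (limma adjusted p = 0.359 and 0.00532). In Ctrl the IL library of mouse 3546, at 2.29 CPM, was below all Ctrl CL libraries, and without it the Ctrl difference was 1.499 ± 0.23 (limma adjusted p = 0.00385). A stretch of 482 bases of *Isg15* was 95.2% identical to the annotated gene AC151275.1, so that some of its reads may be split. *Herc6*, the ligase that attaches Isg15 in mice, rose in cKO. *Herc6* was at 25.8, 26.0, 32.1 and 28.1 CPM in Ctrl CL and 27.8, 26.3, 29.3 and 31.8 CPM in Ctrl IL. For *Herc6* in cKO, the values were 25.2, 32.4 and 24.6 CPM in CL and 43.2, 54.2 and 43.2 CPM in IL. The differences were 0.12 ± 0.13 in Ctrl and 0.82 ± 0.16 in cKO (limma adjusted p = 0.656 and 0.0102). The Ctrl libraries of both hemispheres lay within the same range of 25.8 to 32.1 CPM, and the cKO IL libraries were above the other 11.

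*Stat2* and *Irf9* encode subunits of the interferon-activated factor. *Stat2* was at 36.8, 21.3, 42.9 and 32.5 CPM in Ctrl CL and 42.1, 37.0, 53.3 and 48.5 CPM in Ctrl IL. For *Stat2* in cKO, the values were 44.1, 60.3 and 38.5 CPM in CL and 79.0, 98.4 and 71.5 CPM in IL. The *Stat2* difference was 0.54 ± 0.20 in Ctrl and 0.86 ± 0.20 in cKO (limma adjusted p = 0.137 and 0.0185), and the Ctrl limma adjusted p was 0.0207 with a fixed and 0.00707 with a random mouse term. The cKO IL libraries were above all others, whereas the Ctrl hemispheres overlapped in deposited CPM but not after scaling. *Irf9* was at 96.0, 79.0, 67.1 and 56.1 CPM in Ctrl CL and 86.1, 70.7, 75.6 and 65.5 CPM in Ctrl IL. For *Irf9* in cKO, the values were 74.3, 74.5 and 74.6 CPM in CL and 93.0, 92.3 and 82.6 CPM in IL. For *Irf9* the difference of 0.10 ± 0.22 in Ctrl and 0.32 ± 0.10 in cKO (limma adjusted p = 0.86 and 0.0532) was not called in either genotype, with or without the mouse term, although every cKO IL library was above every cKO CL library. For the 6 signalling genes, the limma adjusted p over the fits run ranged from 0.000791 to 0.973 in Ctrl and from 0.00037 to 0.41 in cKO.

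Among the sensors of nucleic acid, *Zbp1*, which recognises Z-form nucleic acid and starts necroptosis, rose in both genotypes and was the only one of the 38 genes called in Ctrl in each of the 8 fits that left out a library. *Zbp1* was at 9.54, 3.96, 3.57 and 2.99 CPM in Ctrl CL and 23.6, 17.6, 16.4 and 16.5 CPM in Ctrl IL. For *Zbp1* in cKO, the values were 4.29, 14.2 and 3.99 CPM in CL and 41.6, 41.9 and 26.9 CPM in IL. The difference was 1.87 ± 0.33 in Ctrl and 2.39 ± 0.42 in cKO (limma adjusted p = 0.00988 and 0.00753). No Ctrl IL library was below 16.4 CPM and no Ctrl CL library was above 9.54 CPM, and the cKO hemispheres did not overlap either. *Dhx58*, which encodes LGP2, a partner of the RNA sensors, rose in cKO. *Dhx58* was at 40.0, 23.5, 21.5 and 23.2 CPM in Ctrl CL and 50.2, 41.9, 43.9 and 35.6 CPM in Ctrl IL. For *Dhx58* in cKO, the values were 25.0, 42.7 and 25.6 CPM in CL and 83.2, 89.7 and 54.5 CPM in IL. Its difference was 0.76 ± 0.24 in Ctrl and 1.34 ± 0.27 in cKO (limma adjusted p = 0.0933 and 0.0114), and in Ctrl the limma adjusted p was 0.00626 with a fixed and 0.0045 with a random mouse term. Every cKO IL library was above every other library of either genotype in deposited CPM, but after scaling the IL libraries of the genotypes overlapped.

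*Eif2ak2* encodes the kinase PKR, which stops translation on binding double-stranded RNA. *Eif2ak2* was at 5.65, 8.00, 10.8 and 9.96 CPM in Ctrl CL and 9.39, 7.94, 17.2 and 13.4 CPM in Ctrl IL. For *Eif2ak2* in cKO, the values were 4.29, 9.93 and 6.16 CPM in CL and 15.3, 12.8 and 17.2 CPM in IL. It rose in cKO, with differences of 0.49 ± 0.24 in Ctrl and 1.16 ± 0.25 in cKO (limma adjusted p = 0.264 and 0.0146), but the call was lost with the mouse as a fixed term (limma adjusted p = 0.0548). *Ifih1* encodes MDA5, the sensor of long double-stranded RNA. *Ifih1* was at 19.0, 20.2, 19.6 and 13.5 CPM in Ctrl CL and 24.5, 22.1, 24.2 and 17.3 CPM in Ctrl IL. For *Ifih1* in cKO, the values were 19.0, 28.5 and 16.7 CPM in CL and 13.1, 47.6 and 25.8 CPM in IL. The IL library of cKO mouse 784 was the lowest of the 14 and that of mouse 791 the highest, and the differences of 0.36 ± 0.21 in Ctrl and 0.33 ± 0.42 in cKO (limma adjusted p = 0.382 and 0.603) were not called. With the mouse as a fixed term, which drops mouse 784, the cKO difference was 0.73 ± 0.16 (limma adjusted p = 0.0243). Without a mouse term the cKO difference of *Ifih1* was 0.79 when the IL library of mouse 784 was left out and -0.13 when that of mouse 791 was, and it was called in neither (limma adjusted p = 0.165 and 0.804). For the 4 sensing genes, the limma adjusted p over the fits run ranged from 0.000136 to 0.669 in Ctrl and from 0.000406 to 0.822 in cKO.

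The 4 IFIT genes, whose products bind foreign RNA and block its translation, lie in a cluster on chromosome 19. All 4 were called higher in cKO, and in Ctrl *Ifit2* was called without and all 4 with the mouse term. *Ifit2* was at 47.6, 17.9, 16.3 and 16.9 CPM in Ctrl CL and 92.4, 60.3, 56.0 and 52.1 CPM in Ctrl IL. For *Ifit2* in cKO, the values were 33.7, 66.4 and 13.6 CPM in CL and 159, 199 and 92.6 CPM in IL. The *Ifit2* difference was 1.57 ± 0.37 in Ctrl and 2.22 ± 0.53 in cKO (limma adjusted p = 0.0343 and 0.0214). No Ctrl IL library was below the highest Ctrl CL library. Every cKO IL library was above every other library in deposited CPM, by little, but after scaling the IL libraries of the genotypes overlapped. *Ifit1* was at 30.6, 11.5, 4.17 and 5.79 CPM in Ctrl CL and 54.4, 37.1, 28.5 and 19.6 CPM in Ctrl IL. For *Ifit1* in cKO, the values were 11.4, 24.5 and 6.39 CPM in CL and 79.2, 99.9 and 40.8 CPM in IL. For *Ifit1* the difference was 1.71 ± 0.57 in Ctrl and 2.46 ± 0.48 in cKO (limma adjusted p = 0.107 and 0.0111), and in Ctrl the limma adjusted p was 0.00356 with a fixed and 0.0035 with a random mouse term. In CL the library of Ctrl mouse 3541, at 30.6 CPM, was above the highest cKO CL library.

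*Ifit3* was at 87.8, 36.2, 20.7 and 20.1 CPM in Ctrl CL and 169, 104, 87.3 and 73.3 CPM in Ctrl IL. For *Ifit3* in cKO, the values were 33.6, 75.0 and 17.6 CPM in CL and 188, 244 and 104 CPM in IL. For *Ifit3*, the most abundant of the 4, the difference was 1.65 ± 0.49 in Ctrl and 2.27 ± 0.51 in cKO (limma adjusted p = 0.073 and 0.0173), with an adjusted p in Ctrl of 0.00096 with a fixed and 0.00225 with a random mouse term by limma. The CL library of mouse 3541 was within the range of the Ctrl IL libraries. *Ifit3b* was at 14.1, 6.68, 2.88 and 4.06 CPM in Ctrl CL and 28.5, 15.5, 15.2 and 15.4 CPM in Ctrl IL. For *Ifit3b* in cKO, the values were 7.58, 18.5 and 3.70 CPM in CL and 39.3, 54.2 and 24.8 CPM in IL. For *Ifit3b* the difference was 1.53 ± 0.44 in Ctrl and 2.12 ± 0.50 in cKO (limma adjusted p = 0.0653 and 0.0204), with an adjusted p in Ctrl of 0.00254 with a fixed and 0.00261 with a random mouse term by limma. Leaving out mouse 3546 IL gave a Ctrl difference of 1.64 ± 0.46 (limma adjusted p = 0.0492). The longest transcripts of *Ifit3* and *Ifit3b* were 97.8% identical over 1700 bases, so that their shares of these reads are uncertain. For the 4 IFIT genes, the limma adjusted p over the fits run ranged from 0.000677 to 0.27 in Ctrl and from 0.000721 to 0.0804 in cKO.

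**Figure D3:**
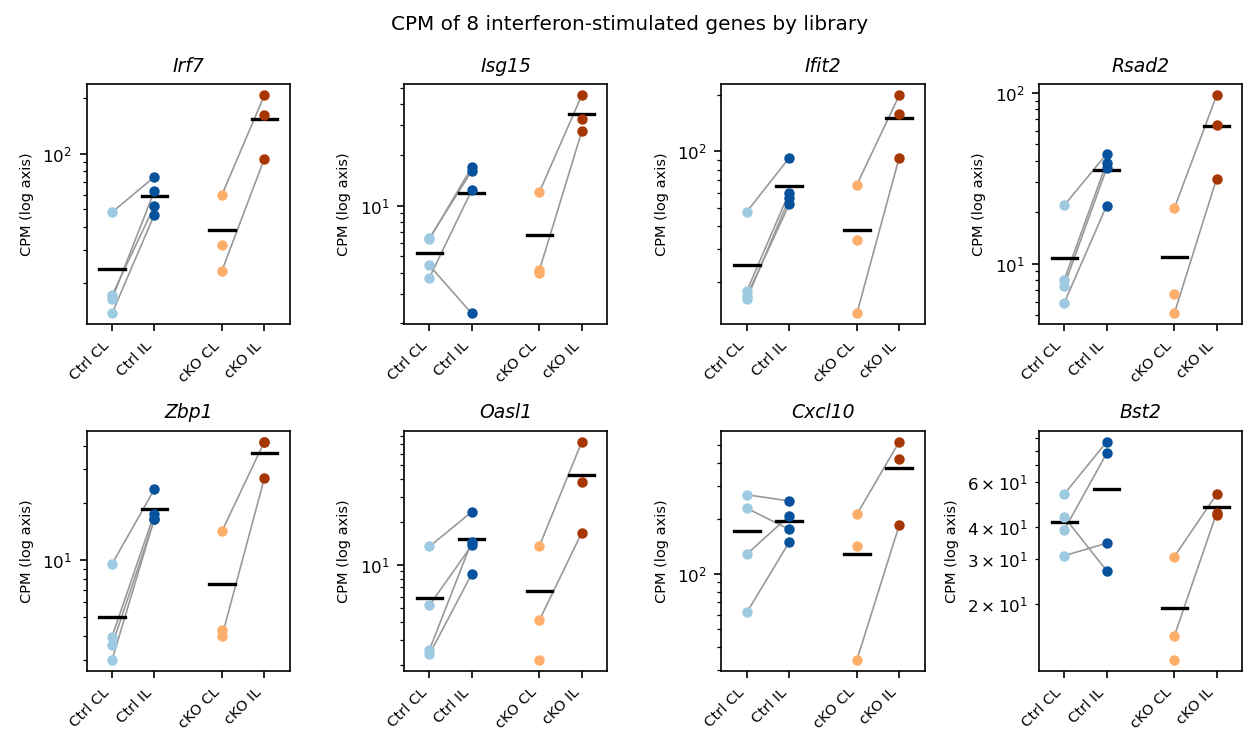
CPM on a log axis of 8 interferon-stimulated genes in the 14 libraries by group. Points are libraries, black bars are group means, and grey lines join the hemispheres of a mouse. *Zbp1* and *Ifit2* separate CL from IL in both genotypes, *Isg15* is lower in IL than in CL in 1 Ctrl mouse (3546, at 2.29 CPM in IL), *Cxcl10* overlaps between hemispheres, and *Bst2* is lowest in cKO CL.

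The 2′-5′-oligoadenylate synthetases make the messenger that activates RNase L, which cuts viral and cellular RNA. All 5 genes of this group were called higher in cKO, and none was called in Ctrl without and all 5 with the mouse term, fixed or random. *Oas1a* was at 46.1, 22.1, 11.6 and 10.5 CPM in Ctrl CL and 80.9, 52.7, 44.3 and 35.5 CPM in Ctrl IL. For *Oas1a* in cKO, the values were 23.8, 44.8 and 23.2 CPM in CL and 135, 139.7 and 86.0 CPM in IL. The *Oas1a* difference was 1.47 ± 0.48 in Ctrl and 2.04 ± 0.29 in cKO (limma adjusted p = 0.101 and 0.00398), and the Ctrl limma adjusted p was 0.00151 with a fixed and 0.0016 with a random mouse term. Each cKO IL library was above each other library in deposited CPM, but after scaling the IL libraries of the genotypes overlapped. In Ctrl the CL library of mouse 3541 was above the IL libraries of 3546 and 3551. The longest transcripts of *Oas1a* and its neighbour *Oas1g* were 97.6% identical over 1861 bases, so that the level of *Oas1a* alone is uncertain.

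*Oas2* was at 6.97, 4.11, 4.98 and 5.16 CPM in Ctrl CL and 15.3, 5.89, 14.5 and 7.28 CPM in Ctrl IL. For *Oas2* in cKO, the values were 6.59, 11.5 and 7.05 CPM in CL and 28.8, 32.9 and 16.2 CPM in IL. *Oas2* had differences of 0.89 ± 0.32 in Ctrl and 1.56 ± 0.31 in cKO (limma adjusted p = 0.131 and 0.0112), and a Ctrl limma adjusted p of 0.0227 with a fixed and 0.00847 with a random mouse term. In Ctrl IL, mice 3541 and 3546 were at 15.3 and 14.5 CPM, while mice 3545 and 3551, at 5.89 and 7.28 CPM, were near the CL libraries. *Oas3* was at 5.24, 2.36, 2.97 and 0.560 CPM in Ctrl CL and 7.31, 4.44, 7.94 and 2.28 CPM in Ctrl IL. For *Oas3* in cKO, the values were 0.996, 4.44 and 2.32 CPM in CL and 11.7, 13.01 and 5.67 CPM in IL. *Oas3* had differences of 0.90 ± 0.46 in Ctrl and 1.74 ± 0.42 in cKO (limma adjusted p = 0.299 and 0.0216), and a Ctrl limma adjusted p of 0.0126 with a fixed and 0.0443 with a random mouse term. Without the CL library of mouse 3551 the Ctrl difference of *Oas3* was 0.52 (limma adjusted p = 0.55). Its Ctrl hemispheres overlapped and its cKO hemispheres did not.

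*Oasl1* and *Oasl2* encode relatives of the synthetases, and Oasl1 is known to restrain the translation of *Irf7*. *Oasl1* was at 13.5, 5.22, 2.54 and 2.36 CPM in Ctrl CL and 23.5, 13.7, 14.6 and 8.65 CPM in Ctrl IL. For *Oasl1* in cKO, the values were 2.16, 13.6 and 4.11 CPM in CL and 38.1, 72.7 and 16.8 CPM in IL. *Oasl1* had the largest difference of the 38 genes in cKO in the fit without a mouse term, though not with one. Without that term its difference was 1.48 ± 0.50 in Ctrl and 2.65 ± 0.65 in cKO (limma adjusted p = 0.111 and 0.0231). In Ctrl the limma adjusted p was 0.00426 with a fixed and 0.0119 with a random mouse term. Among the cKO IL libraries mouse 791 was the highest and 3592 the lowest, and even the lowest was above every cKO CL library. *Oasl2* was at 51.9, 26.8, 13.1 and 10.6 CPM in Ctrl CL and 81.2, 50.03, 47.0 and 30.1 CPM in Ctrl IL. For *Oasl2* in cKO, the values were 21.9, 40.1 and 15.1 CPM in CL and 94.9, 132 and 59.8 CPM in IL. *Oasl2* had differences of 1.26 ± 0.51 in Ctrl and 1.96 ± 0.39 in cKO (limma adjusted p = 0.184 and 0.0119), and a Ctrl limma adjusted p of 0.00367 with a fixed and 0.00903 with a random mouse term. Its cKO hemispheres did not overlap, while in Ctrl the CL library of mouse 3541 exceeded 3 of the 4 IL libraries. For these 5 genes, the limma adjusted p over the fits run ranged from 0.00151 to 0.55 in Ctrl and from 0.000721 to 0.0815 in cKO.

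All 7 of the other antiviral effectors were called higher in cKO, and *Rsad2* alone among them in Ctrl without the mouse term. *Rsad2* encodes viperin, an enzyme that makes a chain-terminating nucleotide, and its neighbour *Cmpk2* encodes a mitochondrial kinase that supplies the nucleotide it uses. *Rsad2* was at 22.0, 7.45, 8.05 and 5.91 CPM in Ctrl CL and 43.8, 36.1, 39.0 and 21.8 CPM in Ctrl IL. For *Rsad2* in cKO, the values were 6.67, 21.1 and 5.11 CPM in CL and 64.3, 96.5 and 31.4 CPM in IL. The *Rsad2* difference was 1.82 ± 0.40 in Ctrl and 2.61 ± 0.55 in cKO (limma adjusted p = 0.0258 and 0.0135). In Ctrl the highest CL library, at 22.0 CPM, and the lowest IL library, at 21.8 CPM, overlapped slightly, and the cKO hemispheres did not overlap. *Cmpk2* was at 24.9, 9.96, 9.39 and 6.47 CPM in Ctrl CL and 31.2, 25.2, 20.9 and 16.8 CPM in Ctrl IL. For *Cmpk2* in cKO, the values were 8.14, 15.3 and 7.40 CPM in CL and 45.4, 55.8 and 24.6 CPM in IL. The *Cmpk2* difference was 1.05 ± 0.40 in Ctrl and 1.98 ± 0.36 in cKO (limma adjusted p = 0.155 and 0.00833), and the Ctrl limma adjusted p was 0.00738 with a fixed and 0.00888 with a random mouse term. Both genes were higher in IL in each of the 6 mice with both hemispheres.

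*Mx1* encodes a GTPase that traps viral particles and is known to be defective in most laboratory mouse strains. *Mx1* was at 9.95, 4.01, 4.45 and 4.60 CPM in Ctrl CL and 16.4, 10.95, 14.4 and 9.24 CPM in Ctrl IL. For *Mx1* in cKO, the values were 7.17, 9.02 and 2.90 CPM in CL and 26.3, 31.0 and 19.0 CPM in IL. Its difference was 1.15 ± 0.31 in Ctrl and 1.98 ± 0.36 in cKO (limma adjusted p = 0.0553 and 0.0085), and the Ctrl limma adjusted p was 0.00509 with a fixed and 0.00189 with a random mouse term. The CL library of Ctrl mouse 3541 was far above the other 3, which were within 4.01 to 4.60 CPM. The cKO IL libraries were above all others in deposited CPM, but after scaling the IL libraries of the genotypes overlapped. The longest *Mx1* transcript was 94.8% identical to *Mx2* over 920 bases, where reads of both genes may mix. *Samd9l* encodes a restriction factor that shuts down translation. *Samd9l* was at 28.5, 15.7, 19.9 and 12.3 CPM in Ctrl CL and 19.1, 15.5, 24.1 and 10.5 CPM in Ctrl IL. For *Samd9l* in cKO, the values were 8.83, 16.5 and 19.5 CPM in CL and 29.4, 36.7 and 23.0 CPM in IL. It was the only gene with a log2 difference below 0 in Ctrl, with -0.05 ± 0.32 in Ctrl and 1.05 ± 0.29 in cKO (limma adjusted p = 0.965 and 0.0339), and the cKO call was lost with the mouse as a fixed term (limma adjusted p = 0.0771). With mouse 3546 IL left out, the Ctrl difference of *Samd9l* was -0.18 ± 0.33 (limma adjusted p = 0.778). It was above 0, at 0.19 in both fits, without the CL library of mouse 3541 or the IL library of mouse 3551.

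*Ifitm3*, *Bst2* and *Isg20* encode a block to membrane fusion, the tether that holds budding virus on the cell, and an exonuclease. *Ifitm3* was at 138, 67.8, 42.0 and 40.3 CPM in Ctrl CL and 170.3, 138, 27.0 and 106 CPM in Ctrl IL. For *Ifitm3* in cKO, the values were 38.8, 72.6 and 63.3 CPM in CL and 217, 259 and 171 CPM in IL. The *Ifitm3* difference was 0.61 ± 0.62 in Ctrl and 1.96 ± 0.25 in cKO (limma adjusted p = 0.654 and 0.00291), and without the Ctrl IL library of 3546, at 27.0 CPM the lowest of the 14, the Ctrl difference was 1.21 ± 0.42 (limma adjusted p = 0.0969). The cKO hemispheres did not overlap, and all cKO IL libraries were above the Ctrl IL libraries in deposited CPM, but not after scaling. *Bst2* was at 39.0, 30.9, 43.8 and 54.0 CPM in Ctrl CL and 78.0, 34.6, 27.0 and 86.5 CPM in Ctrl IL. For *Bst2* in cKO, the values were 12.0, 30.6 and 14.9 CPM in CL and 44.7, 53.9 and 45.4 CPM in IL. The *Bst2* difference was 0.37 ± 0.36 in Ctrl and 1.44 ± 0.30 in cKO (limma adjusted p = 0.641 and 0.0126), and without the Ctrl IL library of 3546 the Ctrl difference was 0.70 ± 0.28 (limma adjusted p = 0.144). It fell to 0.095 without the IL library of mouse 3541 and to 0.15 without that of mouse 3551. The cKO CL libraries, at 12.0 to 30.6 CPM, were all below the Ctrl CL libraries, and the cKO IL libraries lay within the range of the Ctrl IL libraries.

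*Isg20* was at 9.93, 6.17, 5.82 and 3.98 CPM in Ctrl CL and 14.1, 10.5, 3.44 and 8.77 CPM in Ctrl IL. For *Isg20* in cKO, the values were 5.53, 8.59 and 4.88 CPM in CL and 21.8, 25.7 and 9.67 CPM in IL. The *Isg20* difference was 0.45 ± 0.42 in Ctrl and 1.44 ± 0.37 in cKO (limma adjusted p = 0.612 and 0.0281), and without the Ctrl IL library of 3546 the Ctrl difference was 0.84 ± 0.31 (limma adjusted p = 0.12). It fell to 0.16 without the IL library of mouse 3541 and to 0.25 without the CL library of mouse 3551. None of *Ifitm3*, *Bst2* and *Isg20* was called in Ctrl in a fit with the mouse term. For the 7 effectors, the limma adjusted p over the fits run ranged from 0.00074 to 0.985 in Ctrl and from 0.000356 to 0.115 in cKO.

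The chemokines *Cxcl9* and *Cxcl10*, which draw T cells and NK cells through the receptor Cxcr3, differed in level and in behaviour. *Cxcl9* was at 0.745, 0.853, 0.635 and 0.622 CPM in Ctrl CL and 0.654, 0.484, 0.818 and 0.936 CPM in Ctrl IL. For *Cxcl9* in cKO, the values were 1.96, 2.26 and 0.775 CPM in CL and 0.790, 1.41 and 0.667 CPM in IL. *Cxcl9*, known mainly as a target of interferon gamma, stayed at or below 2.26 CPM in all 14 libraries and was not called, with differences of 0.03 ± 0.14 in Ctrl and -0.38 ± 0.27 in cKO (limma adjusted p = 0.942 and 0.345). Without the Ctrl IL library of 3546 its Ctrl difference was 0.02 ± 0.16 (limma adjusted p = 0.96). *Cxcl10* was at 227, 128, 61.7 and 269 CPM in Ctrl CL and 175, 207, 149 and 249 CPM in Ctrl IL. For *Cxcl10* in cKO, the values were 142, 211 and 34.0 CPM in CL and 421, 523 and 184 CPM in IL. *Cxcl10* had differences of 0.45 ± 0.41 in Ctrl and 1.82 ± 0.67 in cKO (limma adjusted p = 0.609 and 0.0873), and in cKO the limma adjusted p was 0.00214 with a fixed and 0.0135 with a random mouse term. Without the CL library of mouse 3592 the cKO difference was 1.04 (limma adjusted p = 0.113), and without the CL library of mouse 3546 the Ctrl difference was 0.0099 (limma adjusted p = 0.991). The CL libraries of cKO mouse 3592 and of Ctrl mouse 3546 were the lowest of the 14, IL was below CL in Ctrl mice 3541 and 3551, and the hemispheres overlapped in both genotypes. For both chemokines, the limma adjusted p over the fits run ranged from 0.244 to 0.999 in Ctrl and from 0.00214 to 0.653 in cKO.

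*Parp9* and *Parp14* encode ADP-ribosyltransferases that act on antiviral and macrophage signalling. *Parp9* was at 69.3, 71.9, 50.6 and 55.9 CPM in Ctrl CL and 68.9, 60.6, 71.2 and 59.6 CPM in Ctrl IL. For *Parp9* in cKO, the values were 61.1, 66.1 and 47.8 CPM in CL and 89.7, 96.3 and 74.9 CPM in IL. *Parp9* differed by 0.17 ± 0.18 in Ctrl and 0.64 ± 0.17 in cKO (limma adjusted p = 0.673 and 0.0303). The Ctrl libraries of both hemispheres overlapped. The cKO IL libraries were above all others in deposited CPM, but after scaling the IL libraries of the genotypes overlapped. *Parp9* shares 458 exon bases with *Dtx3l* on the opposite strand, and the protocol names no strand, so that reads there cannot be assigned. *Parp14* was at 18.7, 17.3, 24.9 and 18.4 CPM in Ctrl CL and 21.4, 21.6, 46.2 and 28.6 CPM in Ctrl IL. For *Parp14* in cKO, the values were 20.0, 31.2 and 16.4 CPM in CL and 51.6, 47.6 and 44.8 CPM in IL. *Parp14* differed by 0.58 ± 0.22 in Ctrl and 1.17 ± 0.22 in cKO (limma adjusted p = 0.149 and 0.00885), and the Ctrl limma adjusted p was 0.0218 with a fixed and 0.0105 with a random mouse term. Without the IL library of 3546 the Ctrl difference was 0.38 ± 0.17 (limma adjusted p = 0.185). The IL library of Ctrl mouse 3546, at 46.2 CPM, was at the level of the cKO IL libraries, and the other 3 Ctrl IL libraries were between 21.4 and 28.6 CPM. For both transferases, the limma adjusted p over the fits run ranged from 0.0105 to 0.914 in Ctrl and from 0.00108 to 0.104 in cKO.

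The last group holds 8 genes of mixed function, of which 4 were called higher in cKO and none in Ctrl without the mouse term. *Ifi27l2a*, an interferon-induced gene often used as a marker of interferon-responsive microglia, reached the highest CPM per kb of exon of the 38 genes in cKO IL, with a mean of 343 against 143 in Ctrl IL, 118 in cKO CL and 64.2 in Ctrl CL. *Ifi27l2a* was at 61.6, 26.4, 11.8 and 19.1 CPM in Ctrl CL and 113, 86.8, 12.7 and 53.8 CPM in Ctrl IL. For *Ifi27l2a* in cKO, the values were 38.4, 88.4 and 37.6 CPM in CL and 170.2, 178 and 127 CPM in IL. The difference was 1.10 ± 0.71 in Ctrl and 1.68 ± 0.32 in cKO (limma adjusted p = 0.421 and 0.01), and without the Ctrl IL library of 3546, at 12.7 CPM, the Ctrl difference was 1.79 ± 0.50 (limma adjusted p = 0.0493). Without the Ctrl IL library of 3541 it was 0.67 (limma adjusted p = 0.715). The Ctrl limma adjusted p was 0.0231 with a fixed and 0.0622 with a random mouse term. IL was above CL in each of the 6 mice with both hemispheres, and the cKO hemispheres did not overlap. *Ifi27l2a* was 90.7% identical to its neighbour *Ifi27l2b* over 236 bases.

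*Rtp4* and *Xaf1* encode a receptor-transporting protein with antiviral activity and an antagonist of an apoptosis inhibitor. *Rtp4* was at 40.0, 22.5, 12.7 and 11.1 CPM in Ctrl CL and 61.2, 36.6, 24.1 and 24.7 CPM in Ctrl IL. For *Rtp4* in cKO, the values were 23.2, 38.7 and 17.5 CPM in CL and 79.99, 90.5 and 53.3 CPM in IL. *Rtp4* differed by 0.89 ± 0.47 in Ctrl and 1.56 ± 0.31 in cKO (limma adjusted p = 0.306 and 0.0115), and the Ctrl limma adjusted p was 0.00239 with a fixed and 0.0248 with a random mouse term. Without the IL library of mouse 3541 the Ctrl difference of *Rtp4* was 0.55 (limma adjusted p = 0.608). The Ctrl hemispheres overlapped through the CL library of mouse 3541. *Xaf1* was at 24.3, 16.7, 12.3 and 13.1 CPM in Ctrl CL and 34.0, 28.1, 12.9 and 21.3 CPM in Ctrl IL. For *Xaf1* in cKO, the values were 20.6, 26.8 and 17.0 CPM in CL and 46.4, 55.0 and 32.5 CPM in IL. *Xaf1* differed by 0.56 ± 0.36 in Ctrl and 1.08 ± 0.24 in cKO (limma adjusted p = 0.412 and 0.0174), and the Ctrl limma adjusted p was 0.0366 with a fixed and 0.0663 with a random mouse term. Leaving out mouse 3546 IL gave a Ctrl difference of 0.86 ± 0.29 (limma adjusted p = 0.0964), and leaving out mouse 3541 IL gave 0.31 (limma adjusted p = 0.737). For both genes the cKO hemispheres did not overlap and the Ctrl hemispheres did.

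*Ifi35* encodes an interferon-induced protein that can be released as a danger signal. *Ifi35* was at 75.8, 56.2, 54.4 and 50.3 CPM in Ctrl CL and 78.1, 72.1, 48.6 and 65.3 CPM in Ctrl IL. For *Ifi35* in cKO, the values were 57.2, 57.1 and 54.5 CPM in CL and 85.6, 88.9 and 64.5 CPM in IL. *Ifi35* differed by 0.24 ± 0.23 in Ctrl and 0.55 ± 0.15 in cKO (limma adjusted p = 0.629 and 0.0381), and the cKO call was lost with the mouse term (limma adjusted p = 0.0612 with a fixed and 0.0618 with a random mouse term). With mouse 3546 IL left out, the Ctrl difference of *Ifi35* was 0.41 ± 0.20 (limma adjusted p = 0.227). The *Ifi35* difference was 0.09 without the IL library of mouse 3541 and 0.39 without the CL library of that mouse. Of its exon bases, 290 are shared with the antisense gene *Gm11626*. *Lgals3bp*, a secreted binding partner of galectins, was the gene with the highest CPM of the 38 in cKO IL. *Lgals3bp* was at 418, 194, 181 and 200.4 CPM in Ctrl CL and 513, 341, 378 and 333 CPM in Ctrl IL. For *Lgals3bp* in cKO, the values were 309.8, 395 and 163 CPM in CL and 619.9, 713 and 415 CPM in IL. *Lgals3bp* differed by 0.81 ± 0.30 in Ctrl and 1.13 ± 0.35 in cKO (limma adjusted p = 0.148 and 0.0512), and was called with the mouse as a fixed term in both genotypes (limma adjusted p = 0.00407 in Ctrl and 0.00323 in cKO). Without the CL library of mouse 3592 the cKO difference was 0.75 (limma adjusted p = 0.0655). IL was above CL in each of the 6 mice with both hemispheres.

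*Tor3a* was at 190.4, 118, 123 and 113 CPM in Ctrl CL and 169, 137, 127 and 127 CPM in Ctrl IL. For *Tor3a* in cKO, the values were 146, 186 and 115 CPM in CL and 234, 294 and 175 CPM in IL. *Tor3a*, an ATPase of the endoplasmic reticulum, differed by 0.15 ± 0.22 in Ctrl and 0.71 ± 0.25 in cKO (limma adjusted p = 0.78 and 0.0723), and in cKO the limma adjusted p was 0.0109 with a fixed and 0.0211 with a random mouse term. Its Ctrl difference was 0.23 ± 0.23 (limma adjusted p = 0.581) with mouse 3546 IL left out. It was -0.007 without the IL library of mouse 3541 and 0.35 without the CL library of that mouse. IL was below CL in Ctrl mouse 3541 only. *Ifi44* was at 1.995, 1.58, 0.635 and 0.436 CPM in Ctrl CL and 1.68, 2.02, 2.78 and 1.05 CPM in Ctrl IL. For *Ifi44* in cKO, the values were 1.33, 3.42 and 1.55 CPM in CL and 6.93, 8.26 and 2.40 CPM in IL. *Ifi44*, an antiviral and antiproliferative gene, differed by 0.49 ± 0.29 in Ctrl and 1.14 ± 0.42 in cKO (limma adjusted p = 0.381 and 0.0897), and in cKO the limma adjusted p was 0.0931 with a fixed and 0.0411 with a random mouse term. The cKO libraries of both genes overlapped between hemispheres through the CL library of mouse 791. *Trafd1*, a brake on innate signalling, was not called in any fit, with CPM from 75.3 to 119 over all 14 libraries. For these 8 genes, the limma adjusted p over the fits run ranged from 0.00239 to 0.994 in Ctrl and from 0.00155 to 0.984 in cKO.

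**Figure D4:**
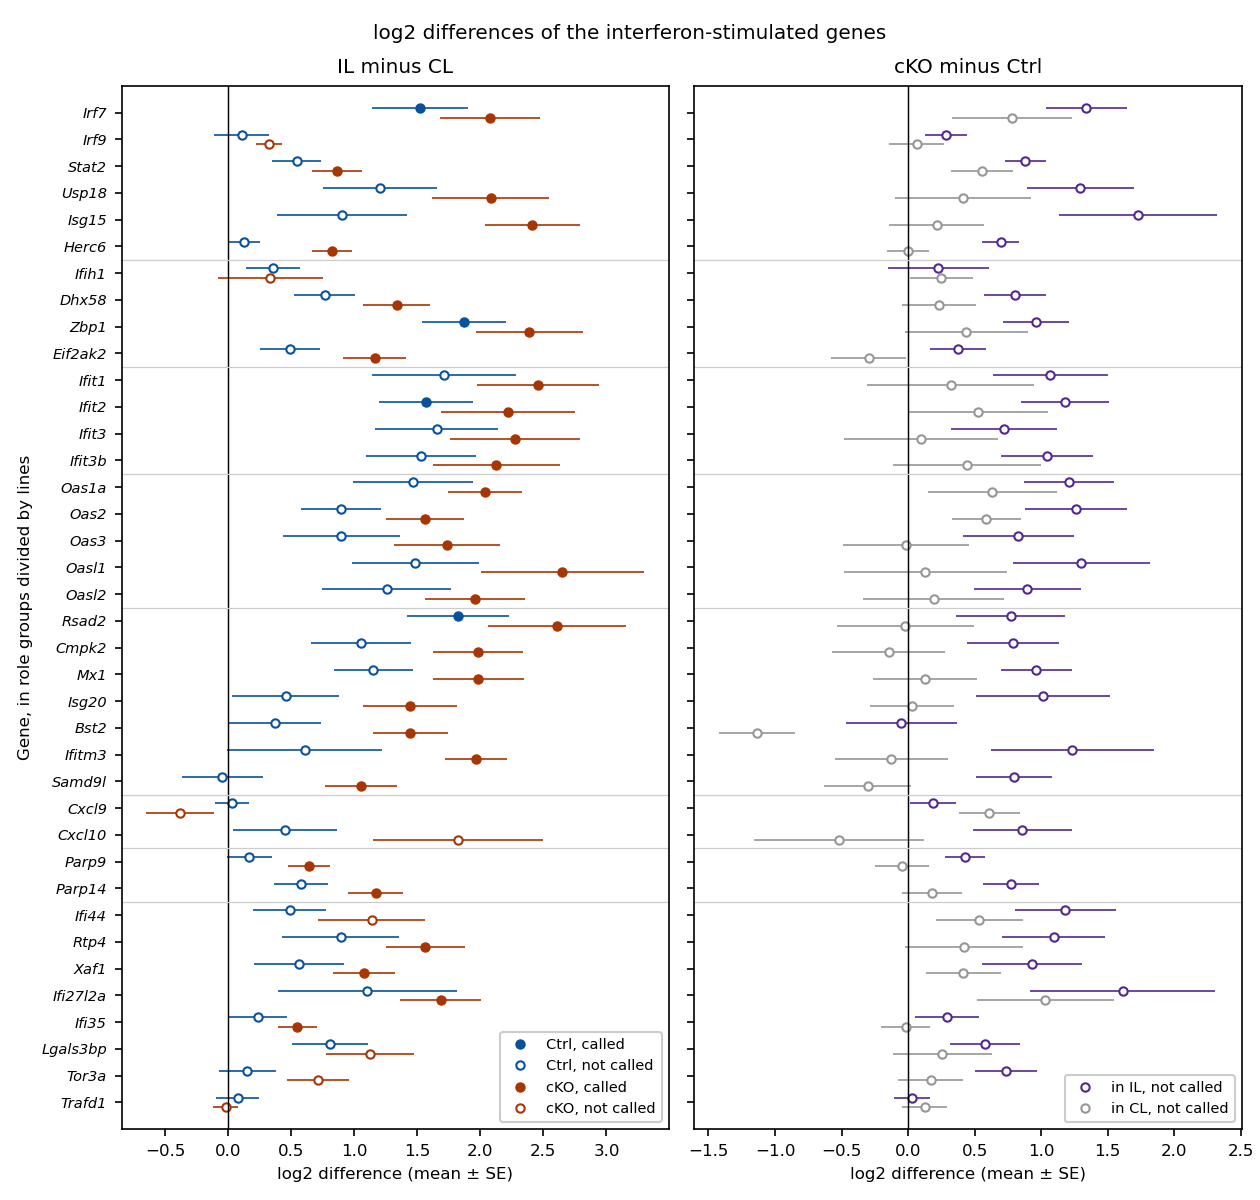
Log2 differences ± SE of the 38 genes (rows, in role groups divided by lines) between hemispheres (left, IL minus CL in Ctrl and in cKO) and between genotypes (right, cKO minus Ctrl in IL and in CL), from the limma fits of the groups compared. Filled points were called and open points were not. In the left panel 4 Ctrl and 30 cKO points are filled, and in the right panel none is.

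Between genotypes in the injured hemisphere, none of the 38 genes was called (limma), against 0.373% of the 16873 genes tested called higher and 0.67% in either direction. The log2 difference was above 0 for all but *Bst2*, against 53.0% of all genes, and 23 genes had an unadjusted p under 0.05, against 9.24% of all genes. The median log2 difference was 0.87, against 0.02 over all genes. *Stat2* had the lowest adjusted p, with a difference of 0.88 ± 0.15 (limma adjusted p = 0.0525), and *Isg15* the largest difference, 1.73 ± 0.59 (limma adjusted p = 0.368). *Herc6* had a difference of 0.70 ± 0.14 (limma adjusted p = 0.091), and was the 1 gene called with the mouse as a random effect, with 0.67 ± 0.14 (limma adjusted p = 0.0262, against 0.552% of all genes called higher in that fit). It was also the 1 gene called with all 14 libraries in a fit of group means (against 0.509%). *Irf7* had a difference of 1.34 ± 0.31 and *Ifi27l2a* of 1.61 ± 0.69 (limma adjusted p = 0.138 and 0.537). When the IL library of Ctrl mouse 3546 was left out, *Ifi27l2a* differed by 0.92 ± 0.28 (limma adjusted p = 0.152), and the estimate of *Isg15*, 1.12, was below those of *Oas2* (1.38), *Irf7* (1.33), *Ifi44* (1.28) and *Oasl1* (1.27).

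When the IL library of Ctrl mouse 3546 was left out, 4 genes were called higher in cKO, against 1.01% of all genes. These were *Parp14* with 0.96 ± 0.12 (limma adjusted p = 0.00502), *Stat2* with 0.92 ± 0.15 (limma adjusted p = 0.0184), *Isg15* with 1.12 ± 0.21 (limma adjusted p = 0.0306) and *Herc6* with 0.66 ± 0.13 (limma adjusted p = 0.0433). The estimate for *Isg15* went down from 1.73 when this library was left out, that of *Parp14* went up from 0.77, and those of *Stat2* and *Herc6*, at 0.88 and 0.70 with it, moved little. Without the IL library of cKO mouse 3592, which after scaling was the lowest of its group for 36 genes, *Irf7* and *Stat2* were called (limma adjusted p = 0.0354 and 0.0425, against 0.44% of all genes called higher).

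In deposited CPM, all 3 cKO IL libraries were above all 4 Ctrl IL libraries for 14 genes, against 4.85% of all genes. These were *Irf7*, *Stat2*, *Isg15*, *Herc6*, *Dhx58*, *Zbp1*, *Ifit2*, *Oas1a*, *Oas2*, *Mx1*, *Ifitm3*, *Parp9*, *Ifi27l2a* and *Tor3a*. After scaling of the libraries the count was 5, against 4.74% of all genes, namely *Irf7*, *Stat2*, *Isg15*, *Herc6* and *Parp14*. The count therefore turned on the scaling. The scaling factors of the Ctrl IL libraries were 0.882, 0.895, 1.07 and 1.04 and those of the cKO IL libraries 0.961, 0.920 and 1.03, and a factor under 1 raises the values of its library.

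In the contralateral hemisphere the genotypes did not part in 1 direction. None of the 38 genes was called (limma), against 0.905% of the 16569 genes tested in either direction. The difference was above 0 for 27 genes and below 0 for 11, against 47.2% of all genes above 0. Of the 38 genes, 4 had an unadjusted p under 0.05, against 10.2% of all genes. The median was 0.19, against -0.02 over all genes. The balance of directions turned on the CL library of mouse 791, without which 13 genes were above 0 and 25 below, with a median of -0.08. *Ifi27l2a* had the highest estimate, 1.03 ± 0.51, and *Bst2* the lowest, -1.13 ± 0.29 (limma adjusted p = 0.543 and 0.143). The *Ifi27l2a* estimate was 0.63 with the CL library of mouse 791 left out and 0.67 with that of Ctrl mouse 3546 left out. *Bst2* was the 1 gene without overlap, at 12.0, 30.6 and 14.9 CPM in cKO and at 39.0, 30.9, 43.8 and 54.0 CPM in Ctrl, against 6.04% of all genes (4.38% after scaling) with every cKO CL library below every Ctrl CL library. The nearest libraries, of cKO mouse 791 and Ctrl mouse 3545, nearly met, and without the CL library of mouse 791 *Bst2* was called lower in cKO (-1.52 ± 0.22, limma adjusted p = 0.0254, against 0.153% of all genes).

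The interaction of genotype and hemisphere asks whether the injury difference itself differed between the genotypes. It was called for none of the 38 genes and for none of the 18475 genes tested (limma), with 2 of the 38 at an unadjusted p under 0.05 against 2.58% of all genes. With the mouse as a random effect, 9 of the 38 had an unadjusted p under 0.05, against 6.82% of all genes, and none was called, against 0.0217%. The estimate, cKO minus Ctrl, was above 0 for 35 genes, against 50.7% of all genes, and its median was 0.64, against 0.004 over all genes. *Isg15* had the largest, 1.501 ± 0.75, and *Herc6* the lowest unadjusted p, with 0.68 ± 0.20 (limma adjusted p = 1 and 1). Leaving out mouse 3546 IL gave an *Isg15* estimate of 0.88. That 30 genes were called in cKO and 4 in Ctrl therefore does not show that the injury difference was larger in cKO. The comparisons share libraries, since the same cKO IL libraries enter the difference between hemispheres and that between genotypes.

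Genes upstream of the response were taken from a list of 36 ligands, receptors, kinases, transcription factors, sensors and brakes, of which 35 were in the table and 33 were tested in the fits of each genotype. Of these, 2 were called higher and 3 lower in IL in Ctrl, and 4 higher and 5 lower in cKO, against 4.18% and 3.33% of all genes in Ctrl and 12.3% and 10.8% in cKO, with the direction shared by the genes called in both. With the mouse as a fixed term the counts were 5 higher and 9 lower in Ctrl and 6 higher and 4 lower in cKO, against 10.2% and 10.3% of all genes in Ctrl and 8.49% and 6.16% in cKO. The median log2 difference of the list was -0.14 in Ctrl and -0.03 in cKO.

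*Ifnb1*, which encodes interferon beta, was at 1.85, 0.828, 1.24 and 1.37 CPM in Ctrl CL and 2.25, 1.65, 0.736 and 2.25 CPM in Ctrl IL. In cKO, *Ifnb1* was at 3.74, 3.28 and 1.59 CPM in CL and 11.7, 6.69 and 3.47 CPM in IL. It was called higher in cKO IL than in cKO CL (1.01 ± 0.29) and than in Ctrl IL (1.56 ± 0.34) with the mouse as a random effect (limma adjusted p = 0.0283 and 0.0386). The call between hemispheres was also made with the mouse as a fixed term (limma adjusted p = 0.0495), and neither call was made without a mouse term (limma adjusted p = 0.0956 and 0.198). The cKO IL libraries were all above the Ctrl IL libraries, and the genotypes also stood apart in CL except for the overlap of cKO mouse 3592 with Ctrl mouse 3541. *Ifnar1*, a chain of the interferon receptor, was between 117 and 154 CPM in Ctrl CL and between 151 and 212 CPM in Ctrl IL. In cKO, *Ifnar1* was between 123 and 136 CPM in CL and between 157 and 184 CPM in IL. It was called higher in cKO IL (0.42 ± 0.08, limma adjusted p = 0.0103) and, with the mouse as a fixed term, in Ctrl IL (0.48 ± 0.08, limma adjusted p = 0.00806). *Ifngr1*, a chain of the interferon gamma receptor, was lower in IL in both genotypes, with differences of -0.76 ± 0.16 in Ctrl and -1.10 ± 0.17 in cKO (limma adjusted p = 0.0184 and 0.00456).

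Among the kinases and factors, *Irf5* was called lower in cKO (-0.38 ± 0.11, limma adjusted p = 0.0374) and, with the mouse as a fixed term, in Ctrl (-0.35 ± 0.08, limma adjusted p = 0.0189), a term with which its cKO call was lost (-0.43 ± 0.15, limma adjusted p = 0.091). *Irf2* was called lower in cKO with the mouse as a fixed term (-0.55 ± 0.15, limma adjusted p = 0.0495), and *Jak2* higher in Ctrl with the mouse as a random effect (0.28 ± 0.09, limma adjusted p = 0.0374).

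The kinase *Ikbke*, which activates Irf3 and Irf7, had the largest difference of the list. It was at 3.99, 0.953, 2.93 and 1.93 CPM in Ctrl CL and 13.5, 15.4, 16.2 and 18.04 CPM in Ctrl IL. In cKO, *Ikbke* was at 1.96, 5.06 and 6.24 CPM in CL and 16.1, 28.0 and 22.4 CPM in IL. *Ikbke* and *Trim25*, the ligase that activates the RNA sensor RIG-I, were higher in IL in both genotypes, *Ikbke* by 2.43 ± 0.28 in Ctrl and 2.22 ± 0.34 in cKO and *Trim25* by 1.57 ± 0.18 and 1.18 ± 0.12 (limma adjusted p = 0.00124, 0.00469, 0.00133 and 0.00202). For both genes every IL library was above every CL library of either genotype. *Ddx58*, which encodes RIG-I itself, was called higher in cKO with the mouse as a fixed term (0.72 ± 0.17, limma adjusted p = 0.0289), and its Ctrl libraries were between 38.9 and 52.5 CPM in CL and between 36.4 and 53.2 CPM in IL.

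Several sensors went the other way. *Tmem173*, which encodes STING, was lower in IL, with differences of -0.88 ± 0.15 in Ctrl and -0.87 ± 0.13 in cKO (limma adjusted p = 0.00906 and 0.00499), with between 536 and 704 CPM in Ctrl CL against between 275 and 340.1 CPM in Ctrl IL. *Tlr3*, the endosomal sensor of double-stranded RNA, was lower in IL in Ctrl (-0.74 ± 0.13, limma adjusted p = 0.0101) and differed by -0.48 ± 0.16 in cKO (limma adjusted p = 0.0592). With the mouse as a random effect *Tlr3* was also called lower in IL in cKO and higher in cKO IL than in Ctrl IL (-0.46 ± 0.13 and 0.68 ± 0.15, limma adjusted p = 0.0241 and 0.0406). *Tlr4* was called lower in IL in cKO (-0.52 ± 0.09, limma adjusted p = 0.0073) and, with the mouse as a fixed term, in Ctrl (-0.40 ± 0.09, limma adjusted p = 0.0246). *Tlr7* and *Cgas* were called lower in Ctrl with the mouse as a fixed term (-0.38 ± 0.09 and -0.45 ± 0.11, limma adjusted p = 0.0313 and 0.026).

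Of the brakes on cytokine signalling, *Socs3* was called higher and *Socs1* lower in Ctrl IL with the mouse as a fixed term (0.46 ± 0.11 and -0.75 ± 0.17, limma adjusted p = 0.027 and 0.0249). *Pias1* was called lower in cKO (-0.45 ± 0.09, limma adjusted p = 0.0114) and, with the mouse as a fixed term, in Ctrl (-0.38 ± 0.08, limma adjusted p = 0.0202), while its cKO call was lost with that term (-0.40 ± 0.13, limma adjusted p = 0.0769). *Trim21* was called lower in Ctrl with the mouse as a random effect (-0.36 ± 0.10, limma adjusted p = 0.0221). *Ifna2* and *Ifng* were mostly too low to be tested, with at most 0.176 and 0.424 CPM.

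Markers of cell types moved with the hemisphere. The 10 microglial markers summed to between 38786 and 43901 CPM in Ctrl CL and between 21300 and 26012 CPM in Ctrl IL, with 6 called lower, and to between 36753 and 40445 CPM in cKO CL and between 21423 and 23651 CPM in cKO IL, with 7 called lower. The 8 markers of infiltrating monocytes summed to between 87.8 and 724 CPM in Ctrl CL, between 149 and 363 CPM in Ctrl IL, between 98.3 and 223 CPM in cKO CL and between 178 and 253 CPM in cKO IL, with 3 called higher in IL in each genotype. The median log2 difference of these 8 was -0.32 in Ctrl, where the mean of the sum went from 354 CPM in CL to 253 CPM in IL, and 0.81 in cKO. The 9 neutrophil markers summed to between 553 and 7823 CPM in Ctrl CL, between 165 and 1017 CPM in Ctrl IL, between 587 and 1652 CPM in cKO CL and between 236 and 372 CPM in cKO IL, with 6 called lower in IL in cKO. The 10 markers of T and NK cells summed to at most 23.0 CPM in any library, with 4 called lower in Ctrl IL, and the 7 markers of border-associated macrophages to between 167 and 762 CPM, with 1 (*Cbr2*) called lower in Ctrl IL. Of the markers of endothelial cells, oligodendrocytes and neurons, 1 (*Mobp*, of oligodendrocytes) was called higher in cKO IL and none lower, and of those of astrocytes *Gfap* was called higher and *Slc1a3* lower in IL in both genotypes. The 10 genes of the response to tissue dissociation summed to between 27590 and 35780 CPM in Ctrl CL, between 19340 and 21565 CPM in Ctrl IL, between 30399 and 42442 CPM in cKO CL and between 19831 and 22896 CPM in cKO IL, with 1 (*Hspa1b*) called lower in Ctrl IL and 4 (*Fos*, *Jun*, *Hspa1b* and *Hspa1a*) in cKO IL. No marker of these lists was at 0 in every library of a group, and in IL the sums of the genotypes overlapped for each of these lists, with 1 marker (*Olfml3*, of microglia) called lower in cKO. In CL the sums of the genotypes did not overlap for oligodendrocytes, at 220 to 310 CPM in Ctrl and 176 to 215 CPM in cKO, or for T and NK cells, at 13.1 to 23.0 and 6.57 to 12.9 CPM, and 1 marker (*Mobp*) was called lower in cKO. The part of these changes in the levels of the interferon-stimulated genes was not tested, and in these bulk libraries a change in the share of a cell type and a change in RNA per cell cannot be told apart.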

How the data were processed

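The authors sequenced Smart-Seq v4 libraries (a kit that does not mark strand), aligned them with STAR to mm10 and counted genes in Partek Flow (version 8.0, per the labels). The table they deposited as counts holds CPM: its 14 columns all sum to the same total. No count test was therefore used, and the spacing of low values gave each library's depth (79.0% to 83.6% of values under 100 reads were whole within 0.03). The authors' lists of p-values, false discovery rates, ratios, fold changes and group means were not used. CPM were scaled (unweighted TMM) and log2(CPM + 1) was fitted per comparison in limma 3.58.1 (R 4.3.3) with an intensity trend and Benjamini-Hochberg adjustment over all genes passing the filter (10 reads at median depth). Groups and mouse numbers came from the labels. The labels give both hemispheres of 6 mice, whose deviations from their group means correlated at 0.184 to 0.603 within a mouse and at -0.530 to 0.499 between different mice of a genotype. Because the labels pair them, fits with the mouse as a fixed or random term are given where they change a call. All 38 genes were accounted for, with values in every library for those called in a fit, extreme in a comparison or first in their role group. The members, role groups, marker and upstream lists were chosen with earlier results of these data known. Alternatives were another pseudocount, no filter, other scalings, all 14 libraries in 1 fit and leaving out each library. Near-identical transcripts (at least 90% over 200 bases, GENCODE vM21) were found with blastn 2.17.0. The script was tested on simulated data. Results for some genes are not reported here.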

Additional observations from a re-analysis of the deposited data

Results flagged for a closer look

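A single library lay far from the other 3 of its group for 2 genes, among 76 groups of 4 libraries examined with Dixon's ratio at its 95% critical value, where chance alone gives about 1 in 20. The 2 flags among 76 are under that share. In the CL library of Ctrl mouse 3541, *Mx1* stood at 9.95 CPM, above the other 3 Ctrl CL libraries at 4.01 to 4.60 CPM (ratio 0.978). After scaling, that library was also the highest of its group for 29 of the 38 genes. In the IL library of Ctrl mouse 3546, *Isg15* stood at 2.29 CPM, below the other 3 Ctrl IL libraries at 12.3 to 16.9 CPM (ratio 0.833). This is the library with the fewest reads (12.2 M) and with low values of genes under 1 kb, a class to which *Isg15* belongs. The part of these features in either value was not tested.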

How the results depend on the processing

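No difference of a named gene changed direction while called in either fit. The count of genes called higher in Ctrl IL moved most: 4 in the fit as reported became 20 with the mouse as a random effect, 22 with the mouse as a fixed term and 1 with no filter on low values, and lay between 1 and 14 with each library left out in turn. Without the CL library of mouse 3541 it was 14 (against 3.68% of all genes), without the IL library of 3546 it was 7 (against 5.6%), without the IL library of 3551 it was 2 (against 2.9%) and without any of the other 5 it was 1 (against 2.21% to 2.95%). With all 14 libraries in 1 fit it was 6. In cKO the count of 30 lay between 16 and 33 with each library left out, being 16 without the IL library of mouse 784 or of 791. Over all genes, between 1067 (of 17197 tested) and 2017 (of 17528) were called higher in these fits. The cKO count was 21 with all 14 libraries in 1 fit, 31 with the mouse as a fixed term and 33 as a random effect. Between genotypes in IL the count of 0 became 1 with all 14 libraries in 1 fit and 1 with the mouse as a random effect, and lay between 0 and 4 with each library left out. In CL it lay between 0 and 1. The mouse term changed no call in CL or in the interaction. Scaling moved the median of all genes by less than 0.1 on the log2 scale and turned the sign of uncalled differences of *Trafd1*, *Isg20* and *Herc6* in 1 comparison each. The cause of these changes was not tested. Groups of 3 or 4 mice, 1 Ctrl IL library of 12.2 M reads and genes at a few CPM limit the precision.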
